A study of Rattus norvegicus with 12 samples.

Results

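The mRNAs of glycolysis and gluconeogenesis were followed in ND7/23 cells, which arose by fusing sensory neurons of rat dorsal root ganglia with a mouse neuroblastoma. The members were all genes that the deposited annotation places in the glycolysis and gluconeogenesis pathway of rat, without Aldh3a1, which gave 65 genes of 21556 in the table. Of these, 41 had a mean of at least 0.5 FPKM (fragments per gene scaled by gene length and by the mapped total of the library) over the libraries and were tested, and 24 lay under this minimum. In all, 4 groups of 3 libraries each were sequenced: control cells, cells given 100 μM menthol, cells given 100 ng/ml Wnt3a, and cells given menthol with Wnt3a at the same doses, all for 6 h. Menthol is an agonist of the cold-sensing channel TRPM8, and Wnt3a is a ligand that activates Wnt/β-catenin signaling. The comparisons therefore asked what each agent did alone and what menthol did when Wnt3a was present. The labels number the libraries of a group but do not say that they came from separate cultures, so p-values measure the spread between these libraries, which may be technical.

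The libraries held 36914722 to 38837023 reads on genes. The labelled cell type was checked against a list of 12 neuron markers. Uchl1 (mean 101 FPKM), Isl1 (13.2 FPKM) and Map2 (6.70 FPKM) were above the minimum, whereas Tubb3 (0 to 6 reads per library), Elavl4 (0 to 1 reads), Stmn2, Prph, Nefl, Nefm and Gap43 stayed at 12 reads or fewer in every library. Several defining neuron markers were thus close to absent from these rat-annotated counts, and the handling of reads from the mouse genome is not given in the sources used here. Because the samples were bulk RNA, fewer cells of a kind and less RNA per cell cannot be told apart.

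Glycolysis converts glucose to pyruvate in the cytosol in a chain of enzyme steps, several of which are served by isozymes from separate genes. Enolase, the enzyme that converts 2-phosphoglycerate to phosphoenolpyruvate, has a widespread form encoded by Eno1, a form typical of neurons and neuroendocrine cells encoded by Eno2, and a form typical of striated muscle encoded by Eno3. Lactate dehydrogenase reduces pyruvate to lactate, whereas the pyruvate dehydrogenase complex passes it on to mitochondrial oxidation. In many cells, hypoxia-inducible factor and growth signals raise the genes of these steps together.

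The enolase genes gave the clearest contrast between isozymes, so the 250 bases before their annotated starts are shown first. They were taken from RefSeq (build GRCr8, not the build used for the reads), which lists 2 starts for Eno1. Capitals mark 4 kinds of motif, each searched on both strands. The core of the hypoxia-inducible factor site was searched as ACGTG or GCGTG. The TCF/LEF site through which Wnt signaling acts was searched as CTTTGA, the GC box as GGGCGG, and the TATA box as TATAAA. The windows are chr5:166002617-166002866 and chr5:166003111-166003360 on the plus strand for Eno1, chr4:159267221-159267470 on the minus strand for Eno2, and chr10:55868936-55869185 on the plus strand for Eno3.
Eno1, start 1: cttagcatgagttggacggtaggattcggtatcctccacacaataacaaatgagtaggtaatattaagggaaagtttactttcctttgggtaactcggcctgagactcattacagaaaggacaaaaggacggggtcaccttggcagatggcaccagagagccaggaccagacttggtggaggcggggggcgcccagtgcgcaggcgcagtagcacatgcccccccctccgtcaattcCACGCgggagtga
Eno1, start 2: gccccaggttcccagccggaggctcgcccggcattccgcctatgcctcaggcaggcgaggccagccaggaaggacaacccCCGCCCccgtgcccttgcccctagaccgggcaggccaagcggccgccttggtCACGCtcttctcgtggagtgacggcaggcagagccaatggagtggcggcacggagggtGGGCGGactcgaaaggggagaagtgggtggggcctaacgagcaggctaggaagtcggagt
Eno2: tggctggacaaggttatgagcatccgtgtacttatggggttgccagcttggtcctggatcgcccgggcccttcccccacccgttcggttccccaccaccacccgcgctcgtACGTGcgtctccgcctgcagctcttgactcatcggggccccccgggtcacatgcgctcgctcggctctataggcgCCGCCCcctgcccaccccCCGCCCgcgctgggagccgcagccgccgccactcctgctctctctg
Eno3: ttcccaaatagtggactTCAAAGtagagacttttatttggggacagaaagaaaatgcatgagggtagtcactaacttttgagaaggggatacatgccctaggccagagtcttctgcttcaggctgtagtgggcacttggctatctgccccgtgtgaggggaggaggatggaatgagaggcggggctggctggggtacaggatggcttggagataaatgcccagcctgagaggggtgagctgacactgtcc

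The windows differed in base composition and in motifs. The G and C content was 54.4% and 69.2% at the Eno1 starts, 69.6% at Eno2 and 52.4% at Eno3. GCGTG stood before each Eno1 start, as its reverse complement, and ACGTG stood 139 to 135 bases before the Eno2 start. GC boxes stood before the second Eno1 start and at Eno2. The only marked motif before Eno3 was CTTTGA, as its reverse complement, 233 to 228 bases before the start. Over all 33469 windows of this length, ACGTG or GCGTG was present in 36.7%, CTTTGA in 13.9%, GGGCGG in 30.5% and TATAAA in 12.9%. Counted by gene, with a match in any of its windows, ACGTG or GCGTG was held by 39.6% of 27457 genes, GGGCGG by 33.5% and CTTTGA by 14.9%. Of the 37 tested members with a window, 27 held ACGTG or GCGTG, 28 held GGGCGG and 3 held CTTTGA. None of these motifs overlapped another in the enolase windows, and a match describes letters and not binding.

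Glycolytic mRNAs were abundant in all groups. The members took 2.07 to 2.25% of the reads on genes, and 7 of them were among the 100 genes with the highest mean FPKM. Gapdh, the dehydrogenase of glyceraldehyde 3-phosphate, was the highest at 1807 FPKM, followed by Ldha at 1423 FPKM and Eno1 at 1376 FPKM. Pgk1, a kinase that makes ATP, stood at 1147 FPKM, the aldolase Aldoa at 1075 FPKM and the pyruvate kinase Pkm at 966 FPKM. Tpi1, which interconverts the triose phosphates, stood at 704 FPKM, the mutase Pgam1 at 560 FPKM and the isomerase Gpi at 331 FPKM. The kinases of the first steps were lower, with Hk1 at 96.3 FPKM, Hk2 at 68.6 FPKM and the phosphofructokinase Pfkl at 94.6 FPKM. In the plot of levels, the leading isozyme of each core step after phosphofructokinase lies above Hk1, Hk2 and Pfkl.

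**Figure D1:**
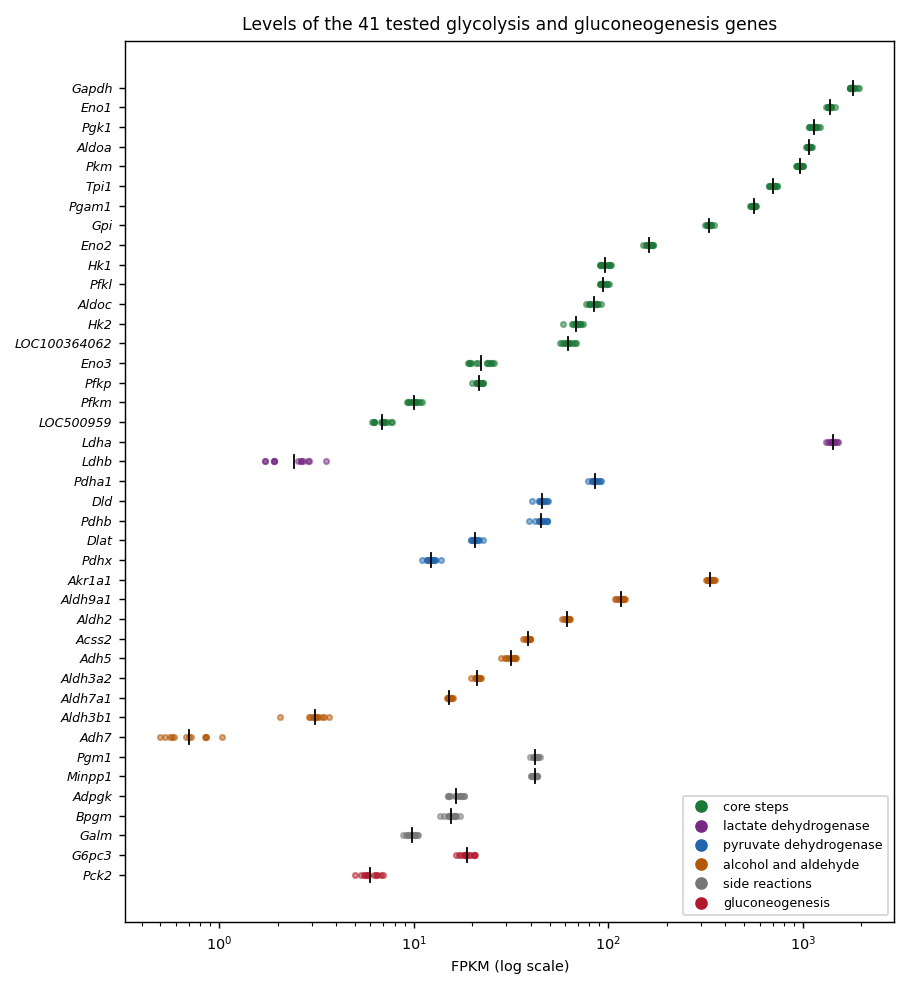
FPKM on a log axis of the 41 tested members, with 1 point per library (12 per gene) and a black line at the mean, grouped by role. Gapdh, Ldha and Eno1 reach at least 1310 FPKM in every library, and Adh7 lies lowest with a mean of 0.702 FPKM.

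The other members had lower levels. Among the subunits of the pyruvate dehydrogenase complex, Pdha1 stood at 85.4 FPKM, Dld at 45.7 FPKM, Pdhb at 45.3 FPKM, Dlat at 20.8 FPKM and Pdhx at 12.4 FPKM. Of the enzymes that handle aldehydes, alcohols and acetate, Akr1a1 stood at 336 FPKM, Aldh9a1 at 116 FPKM, Aldh2 at 61.4 FPKM, Acss2 at 38.6 FPKM and Adh5 at 31.6 FPKM. Aldh3a2 (21.2 FPKM), Aldh7a1 (15.3 FPKM), Aldh3b1 (3.11 FPKM) and Adh7 completed this group. Of the side reactions, the phosphoglucomutase Pgm1 stood at 42.3 FPKM, the phosphatase Minpp1 at 42.0 FPKM, the ADP-dependent glucose kinase Adpgk at 16.6 FPKM, Bpgm at 15.6 FPKM and Galm at 9.76 FPKM. Of the enzymes that run only towards glucose, G6pc3 (18.8 FPKM) and the mitochondrial carboxykinase Pck2 (5.98 FPKM) were above the minimum. The liver and kidney forms G6pc1, Pck1 and Fbp1 had at most 5 reads, 1 read and 1 read in any library.

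Most enzyme families were dominated by 1 isozyme. Eno1 made up 88.1% ± 0.371 (SD, n = 12) of the enolase FPKM, Eno2 10.4% ± 0.265 and Eno3 1.43% ± 0.153. Ldha made up 99.8% of lactate dehydrogenase, and Ldhb, the form favoured by oxidative tissues, had 2.42 FPKM. Aldoa made up 92.7% ± 0.292 of aldolase and the brain form Aldoc (84.3 FPKM) 7.27% ± 0.294. Phosphofructokinase was spread over Pfkl at 74.9% ± 0.782, Pfkp (21.6 FPKM) at 17.1% ± 0.555 and the muscle form Pfkm (10.1 FPKM) at 7.98% ± 0.518. Among the 6 families plotted, hexokinase was the most evenly shared, with Hk1 at 58.3% ± 1.41 and Hk2 at 41.5% ± 1.40. Such shares were not tested, since they describe members chosen by a label.

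**Figure D2:**
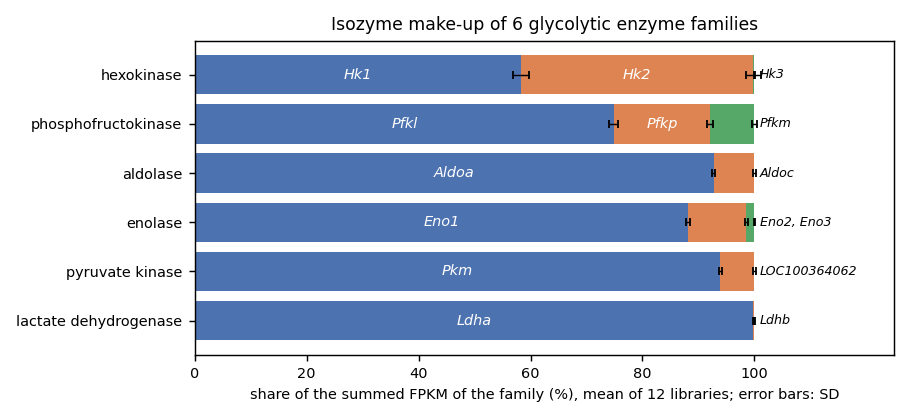
Share of each isozyme in the summed FPKM of its family, in percent, as the mean of 12 libraries with the SD as error bar, for 6 families. Hexokinase divides into Hk1 (58.3%) and Hk2 (41.5%), whereas Ldha takes 99.8% of lactate dehydrogenase.

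The 24 members under the minimum, several of them tissue-restricted isozymes, had few reads. Hk3 had 13 to 53 reads per library, Pgam2, the muscle mutase, 0 to 15 reads, Aldh3b2 1 to 23 reads and Ldhc, the testis form, 1 to 12 reads. The other 20 members under the minimum had at most 10 reads in every library. They included the sperm-associated enolase Eno4 with 1 to 9 reads, the liver and red-cell pyruvate kinase Pklr with 0 to 5 reads, and Hkdc1, Pgk2, Gapdhs, Ldhal6b and Fbp2 with at most 5 reads. Also in this range were RGD1564958, Aldoart2, G6pc1, Acss1, Adh1, LOC688778, Aldh1b1, Adh6, LOC303448, Fbp1 and Pck1.

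Near-identical copies limited the precision of some levels. LOC100364062, a member at 62.4 FPKM, is listed by RefSeq as the pseudogene Pkm-ps20. Together with Pkml1, a further copy outside the pathway, it held 22.1 to 25.1% as many reads as Pkm. LOC500959, listed as Tpi1l1, stood at 6.86 FPKM, and the copies of Tpi1 held 2.35 to 2.91% as many reads as Tpi1. A copy of Ldha held 5.74 to 6.07% as many reads as Ldha. Reads could have been split between these genes and their copies, so the levels of Pkm, Tpi1 and Ldha are uncertain. The copy of Eno1 in the table held at most 0.0543% as many reads. RefSeq lists 34 copies of Eno1, 31 of Ldha, 20 of Pkm, 5 of Tpi1 and 91 of Gapdh. Of these, 1, 1, 2, 2 and 9 were in the table. Reads from the other copies were not measured, so the shares given set no upper limit for any of these genes.

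Eno3, the muscle-type enolase, was lower whenever menthol was given, and it was the only member past the adjusted p in limma on FPKM. With control, its libraries stood at 23.8, 23.7 and 25.4 FPKM. With menthol they stood at 19.0, 19.6 and 19.3 FPKM. With Wnt3a they stood at 24.5, 25.0 and 25.8 FPKM, and with menthol and Wnt3a at 19.4, 21.4 and 20.9 FPKM. All 6 libraries given menthol (19.0 to 21.4 FPKM) thus lay below all 6 libraries without it (23.7 to 25.8 FPKM). Eno3 was the only 1 of 41 tested members separated in this way, against 1.54% of all tested genes. The values rest on 1096 to 1481 reads per library.

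By limma on log2(FPKM + 0.1), Eno3 fell by 0.33 (SE 0.043, adjusted p = 0.0135) on the log2 scale with menthol against control, from a mean of 24.3 ± 0.928 to 19.3 ± 0.304 FPKM (SD, n = 3). In the presence of Wnt3a it fell by 0.29 (SE 0.043, limma adjusted p = 0.0253) with menthol, to 20.6 ± 1.03 FPKM from 25.1 ± 0.678 FPKM. Against control, the cells given menthol with Wnt3a had lower Eno3, with a log2 fold change equal to -0.24 (SE 0.043, limma adjusted p = 0.0200). With Wnt3a alone the log2 fold change was 0.05 (SE 0.043, limma adjusted p = 0.651), and the libraries of these groups overlapped. The moderated F test over the 4 groups gave an adjusted p of 0.00121 in limma. The interaction, which asks whether menthol acted differently when Wnt3a was present, was 0.04 (SE 0.061, limma adjusted p = 0.906) for Eno3.

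**Figure D3:**
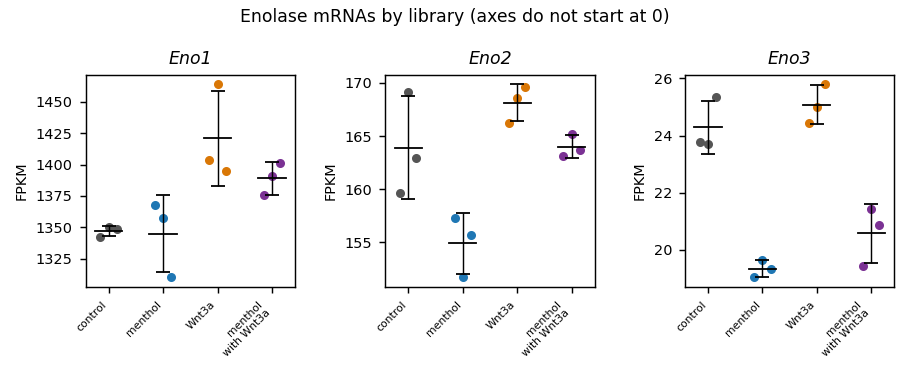
FPKM of Eno1, Eno2 and Eno3 in each of the 12 libraries by group, with the group mean as a line and the SD as error bar (n = 3); the vertical axes do not start at 0. The Eno3 libraries with menthol lie between 19.0 and 21.4 FPKM, below the 23.7 to 25.8 FPKM of those without.

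The size of the Eno3 difference varied little with the processing, but its call did not always hold. Over all alternatives the log2 fold change with menthol against control lay between -0.34 and -0.30 and its limma adjusted p between 0.00485 and 0.117. Without control replicate 2, control replicate 3 or menthol replicate 3, the adjusted p was 0.0545, 0.0831 and 0.0635, so that the call was lost. The call in the presence of Wnt3a was likewise lost without Wnt3a replicate 1 (adjusted p = 0.0817), Wnt3a replicate 2 (0.0998), menthol replicate 3 (0.0535), or replicate 1 (0.0594) or replicate 3 (0.0652) of menthol with Wnt3a, in limma. The call of menthol with Wnt3a against control was lost without control replicate 1 (0.0528), control replicate 3 (0.102), or replicate 1 (0.0544) or replicate 3 (0.0601) of that group.

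Other RNA that moved with the groups was measured beside Eno3. Of 12 skeletal muscle markers, 2 were above the minimum, and the summed level of the list was 7.90 to 9.44 FPKM with control, 8.20 to 9.62 with menthol, 9.50 to 10.8 with Wnt3a and 7.63 to 10.4 with menthol and Wnt3a. These 2 markers went opposite ways with menthol. Tnnt3, a troponin of fast muscle, had a mean of 7.75 FPKM with control and 6.39 FPKM with menthol, and these libraries overlapped (log2 fold change -0.26, SE 0.11, limma adjusted p = 0.488). It had 8.16 FPKM with Wnt3a and 7.21 FPKM with menthol and Wnt3a, without overlap (log2 fold change -0.18, SE 0.11, limma adjusted p = 0.458). Mb, the myoglobin gene, was higher with menthol without overlap, at 1.29 FPKM against 0.320 FPKM with control, but rested on 3 to 74 reads per library (log2 fold change 1.81, SE 0.68, limma adjusted p = 0.435). The defining markers Ckm (0 to 19 reads), Myl1 (0 to 2 reads), Myh1 (0 to 8 reads) and Atp2a1 (0 to 5 reads) were near 0. Of 8 fibroblast markers, 6 were tested, and their list summed to 340 to 355 FPKM with control, 318 to 321 with menthol, 324 to 329 with Wnt3a and 310 to 317 with both. All 6 tested markers were lower with menthol than with control, 5 of them at an unadjusted p under 0.05 in limma, against 9.34% of all tested genes. All 6 were also lower with Wnt3a (2 at that p, against 15.1%) and with both agents (6, against 13.5%). With both agents against Wnt3a, 5 of 6 were lower. Col1a2, a collagen chain, was lower with menthol and Wnt3a than with control (log2 fold change -0.16, limma adjusted p = 0.0200). The part of these markers in the Eno3 result was not tested. In RefSeq, Eno3 overlaps the end of its neighbour Spag7, and the sources used here do not say whether reads were counted by strand. Spag7 stood at 24.8 FPKM with control and 24.9 FPKM with menthol, a log2 fold change of 0.0049 (limma adjusted p = 0.985). It stood at 27.2, 27.7 and 25.9 FPKM with Wnt3a and lower, at 24.5, 25.4 and 24.8 FPKM, with menthol and Wnt3a (log2 fold change -0.11, SE 0.042, limma adjusted p = 0.256). Its part in the Eno3 result was not tested.

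The other enolases differed less between cells with and without menthol. Eno2 stood at 160, 169 and 163 FPKM with control and at 157, 152 and 156 FPKM with menthol, so that these groups did not overlap. It stood at 166, 169 and 170 FPKM with Wnt3a and at 163, 165 and 164 FPKM with menthol and Wnt3a. The log2 fold change with menthol was -0.08 (SE 0.027, limma adjusted p = 0.377) and in the presence of Wnt3a -0.04 (SE 0.027, limma adjusted p = 0.573). Between menthol with Wnt3a and menthol it was 0.08 (SE 0.027, limma adjusted p = 0.489), and against control 0.0010 (limma adjusted p = 0.994). Wnt3a alone gave 0.04 (limma adjusted p = 0.557), and the interaction was 0.05 (SE 0.038, limma adjusted p = 0.823). The direction of Eno2 between menthol with Wnt3a and control turned when libraries were centred on their median.

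Eno1 stood at 1343, 1350 and 1349 FPKM with control, at 1368, 1357 and 1310 FPKM with menthol, at 1404, 1464 and 1395 FPKM with Wnt3a, and at 1375, 1391 and 1401 FPKM with menthol and Wnt3a. All 6 libraries given Wnt3a (1375 to 1464 FPKM) lay above all 6 without it (1310 to 1368 FPKM). Pkm shared this separation, at 972 to 1006 FPKM with Wnt3a against 926 to 962 FPKM without, and these 2 of 41 members compare with 1.17% of all tested genes. The log2 fold change of Eno1 with Wnt3a against control was 0.08 (SE 0.027, limma adjusted p = 0.196), and that with menthol and Wnt3a against control was 0.04 (SE 0.027, limma adjusted p = 0.508). Menthol gave -0.0025 alone (limma adjusted p = 0.990) and -0.03 in the presence of Wnt3a (limma adjusted p = 0.621). The step from menthol to menthol with Wnt3a was 0.05 (limma adjusted p = 0.829), and the interaction was -0.03 (limma adjusted p = 0.886). In the F test over the 4 groups, the limma adjusted p was 0.235 for Eno1 and 0.116 for Eno2.

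As a share of enolase FPKM, Eno3 was 1.58% ± 0.0597 with control, 1.27% ± 0.0359 with menthol, 1.55% ± 0.0601 with Wnt3a and 1.31% ± 0.0563 with menthol and Wnt3a (SD, n = 3). Eno2 was 10.7% ± 0.260, 10.2% ± 0.281, 10.4% ± 0.247 and 10.4% ± 0.0874 in the same order. Eno1 was 87.7% ± 0.242, 88.5% ± 0.294, 88.0% ± 0.306 and 88.3% ± 0.0979. The summed enolase FPKM ranged from 1485 to 1658 over the libraries, so the difference in Eno3 made up a small part of the family.

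Across the pathway, menthol against control passed the adjusted p for 1 of 41 members, Eno3, against 0.105% of all 11451 tested genes. At an unadjusted p under 0.05 it was 8 of 41 members, against 9.34% of all tested genes, and without control replicate 2 it was 3. For counts without 1 library, here and below, the share of all tested genes in the same fit is not given. In the full fit, 19 members were higher and 22 lower, with a median log2 fold change of -0.0090 against -0.0016 for all tested genes. Adpgk, which phosphorylates glucose with ADP, stood at 18.2, 17.7 and 16.5 FPKM with control and at 15.3, 15.3 and 15.1 FPKM with menthol. These groups did not overlap, and the log2 fold change was -0.19 (SE 0.051, limma adjusted p = 0.241). With Wnt3a, Adpgk stood at 17.2, 17.3 and 18.1 FPKM, and with menthol and Wnt3a at 17.2, 15.1 and 16.3 FPKM (log2 fold change -0.11 against Wnt3a, limma adjusted p = 0.334).

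Aldoc, the aldolase of brain, stood at 84.4, 87.1 and 86.7 FPKM with control and at 81.1, 79.7 and 79.3 FPKM with menthol (log2 fold change -0.11, SE 0.038, limma adjusted p = 0.412). It stood at 86.7, 92.2 and 88.3 FPKM with Wnt3a and at 76.9, 82.7 and 86.1 FPKM with menthol and Wnt3a (log2 fold change -0.12, SE 0.038, limma adjusted p = 0.193). Menthol libraries were below their counterparts without menthol in each comparison. For Pdhb, a subunit of pyruvate dehydrogenase, menthol gave a log2 fold change of 0.17 (limma adjusted p = 0.265), and for Pck2 it gave 0.21 (limma adjusted p = 0.502). Hk1 and Aldh9a1 completed the 8 members, with log2 fold changes of 0.08 and -0.08.

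With Wnt3a against control, 0 of 41 members passed the adjusted p in limma, against 0.437% of all tested genes, and 14 were at an unadjusted p under 0.05, against 15.1%. That number was 9 without control replicate 1 or control replicate 2 and 7 without Wnt3a replicate 2. Of the members, 31 were higher and 10 lower, whereas 5913 of all 11451 tested genes were higher. The median log2 fold change was 0.04 for the members and 0.0042 for all tested genes. Tpi1 stood at 670, 683 and 668 FPKM with control and at 722, 740 and 705 FPKM with Wnt3a, without overlap (log2 fold change 0.10, SE 0.025, limma adjusted p = 0.0973). With menthol it stood at 693, 710 and 695 FPKM, and with menthol and Wnt3a at 713, 720 and 734 FPKM. Its control libraries were the lowest of the 12.

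Pkm stood at 931, 926 and 937 FPKM with control and at 990, 1006 and 978 FPKM with Wnt3a (log2 fold change 0.09, SE 0.023, limma adjusted p = 0.102). Ldha stood at 1351, 1382 and 1406 FPKM with control and at 1508, 1523 and 1460 FPKM with Wnt3a (log2 fold change 0.12, SE 0.031, limma adjusted p = 0.105). Neither gene overlapped between these groups. Hk2, the inducible hexokinase, stood at 69.4, 71.4 and 69.3 FPKM with control and lower, at 65.8, 58.3 and 65.3 FPKM, with Wnt3a (log2 fold change -0.15, SE 0.045, limma adjusted p = 0.136). The other 10 were Akr1a1, Eno1, Bpgm, Pdhb, Pck2, Pdhx, Pgam1, Adh5 and Dld, with log2 fold changes of 0.06 to 0.22, and G6pc3, with -0.17. On the recovered reads, limma voom passed 3 members: Ldha (adjusted p = 0.0305), Hk2 (0.0396) and Pkm (0.0488). Of all 11451 tested genes, 277 passed in limma voom in this comparison, against 50 in limma on FPKM. Without Wnt3a replicate 3, Pkm and Tpi1 passed in limma on FPKM (adjusted p = 0.0499 and 0.0390). The share of all tested genes that passed in that fit is not given.

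**Figure D4:**
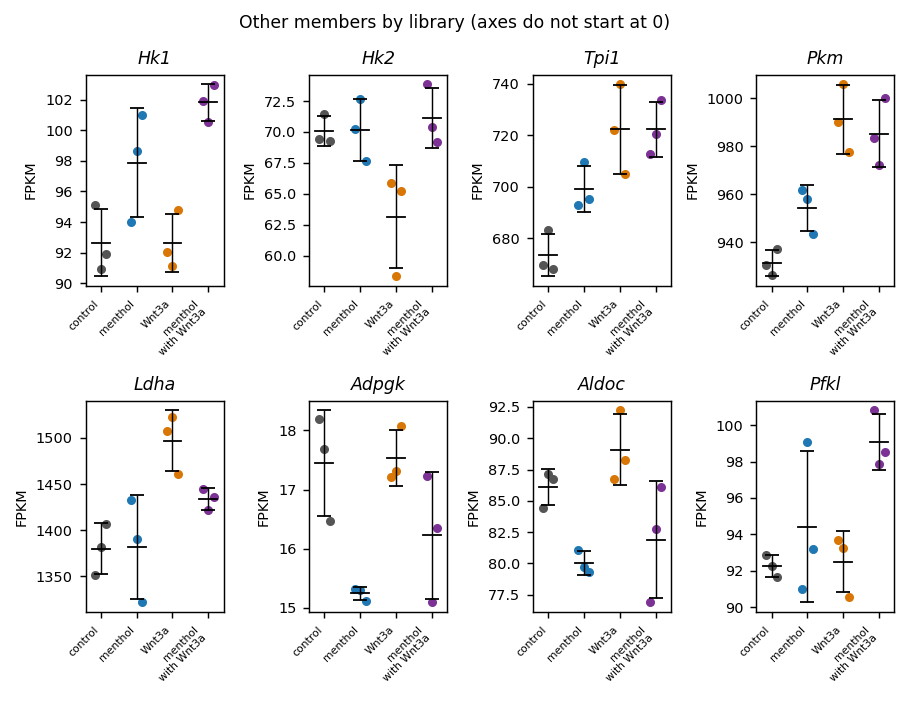
FPKM in each of the 12 libraries by group for 8 further members, with the group mean as a line and the SD as error bar (n = 3); the vertical axes do not start at 0. Hk2 lies lowest with Wnt3a (58.3 to 65.8 FPKM), and Hk1 lies highest with menthol and Wnt3a (101 to 103 FPKM).

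When menthol with Wnt3a was compared with Wnt3a, 1 of 41 members passed the adjusted p, Eno3, against 0.0524% of all tested genes, and 7 were at an unadjusted p under 0.05, against 14.5%. Of the members, 16 were higher and 25 lower, with a median log2 fold change of -0.02 against -0.0017 for all tested genes. Hk1, the housekeeping hexokinase, stood at 92.1, 91.1 and 94.8 FPKM with Wnt3a and at 102, 101 and 103 FPKM with menthol and Wnt3a. These groups did not overlap (log2 fold change 0.14, SE 0.032, limma adjusted p = 0.0957). Its control libraries stood at 95.1, 90.9 and 91.9 FPKM and its menthol libraries at 94.0, 98.6 and 101 FPKM. Hk2 stood at 73.9, 70.4 and 69.2 FPKM with menthol and Wnt3a, above the Wnt3a libraries (log2 fold change 0.17, SE 0.045, limma adjusted p = 0.132). The log2 fold change was 0.10 for each of the phosphofructokinases Pfkl (limma adjusted p = 0.201) and Pfkp (limma adjusted p = 0.30). On the recovered reads, limma voom passed 3 of 41 members, Eno3, Hk1 (adjusted p = 0.0225) and Hk2 (0.0238), against 158 of all 11451 tested genes.

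Against control, menthol with Wnt3a passed 1 of 41 members, Eno3, compared with 0.83% of all tested genes, and 13 were at an unadjusted p under 0.05, compared with 13.5%. That number was 8 without control replicate 1, 7 without control replicate 2 and 8 without replicate 3 of menthol with Wnt3a. Without the shares of all tested genes in those fits, these drops cannot be called particular to the members. In the full fit, 27 members were higher and 14 lower, with a median log2 fold change of 0.04 against 0.0040 for all tested genes. The log2 fold changes were 0.14 for Hk1 (SE 0.032, limma adjusted p = 0.0702), 0.10 for Tpi1 (limma adjusted p = 0.0933) and 0.10 for Pfkl (limma adjusted p = 0.166). Hk1 passed in limma voom on the recovered reads (adjusted p = 0.0150) and in limma on FPKM without menthol replicate 1. The remaining 9 were Pkm, Pdhb, Pgam1, Dld, Akr1a1, Pgm1 and Pck2, which were higher, and G6pc3 and Aldh9a1, which were lower. This comparison shares its control libraries with those of menthol and of Wnt3a.

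Against menthol, menthol with Wnt3a passed 0 of 41 members in limma, against 0.0961% of all tested genes, and 0 in limma voom. Only 3 were at an unadjusted p under 0.05, against 6.72%: Eno2, Pgm1 (log2 fold change 0.09, limma adjusted p = 0.519) and Pfkl (0.07, limma adjusted p = 0.732). Even so, 35 members were higher and 6 lower, and all 18 tested members of the core steps were higher by log2 fold changes of 0.0076 to 0.09, none of them past the adjusted p. These 18 include LOC100364062 and LOC500959, copies that may share reads with Pkm and Tpi1. The count of 3 became 6 without replicate 1 and 5 without replicate 2 of menthol with Wnt3a. The median was 0.04 over the members and 0.0043 over all tested genes, of which 6018 were higher. With libraries centred on their median, the median over all tested genes was -0.0057, and 5317 were higher. The smallest rises may therefore depend on the scaling.

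The interaction of menthol and Wnt3a passed 0 members and 0.0% of all tested genes in limma, and 0 genes in limma voom. At an unadjusted p under 0.05 it was 2 of 41 members, against 6.99% of all tested genes. These were Hk2 (0.17, SE 0.064, limma adjusted p = 0.715) and Pdhb (-0.15, SE 0.067, limma adjusted p = 0.715). The count was 1 without control replicate 1, control replicate 2, Wnt3a replicate 3 or replicate 1 of menthol with Wnt3a. The F test over the 4 groups passed 1 member, Eno3, against 0.978% of all tested genes, and 14 were at an unadjusted p under 0.05, against 17.4%. After Eno3, the smallest adjusted p values of the F test in limma were those of Hk1 (0.0888), Tpi1 (0.113), Adpgk (0.114), Eno2 (0.116) and Aldoc (0.124).

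**Figure D5:**
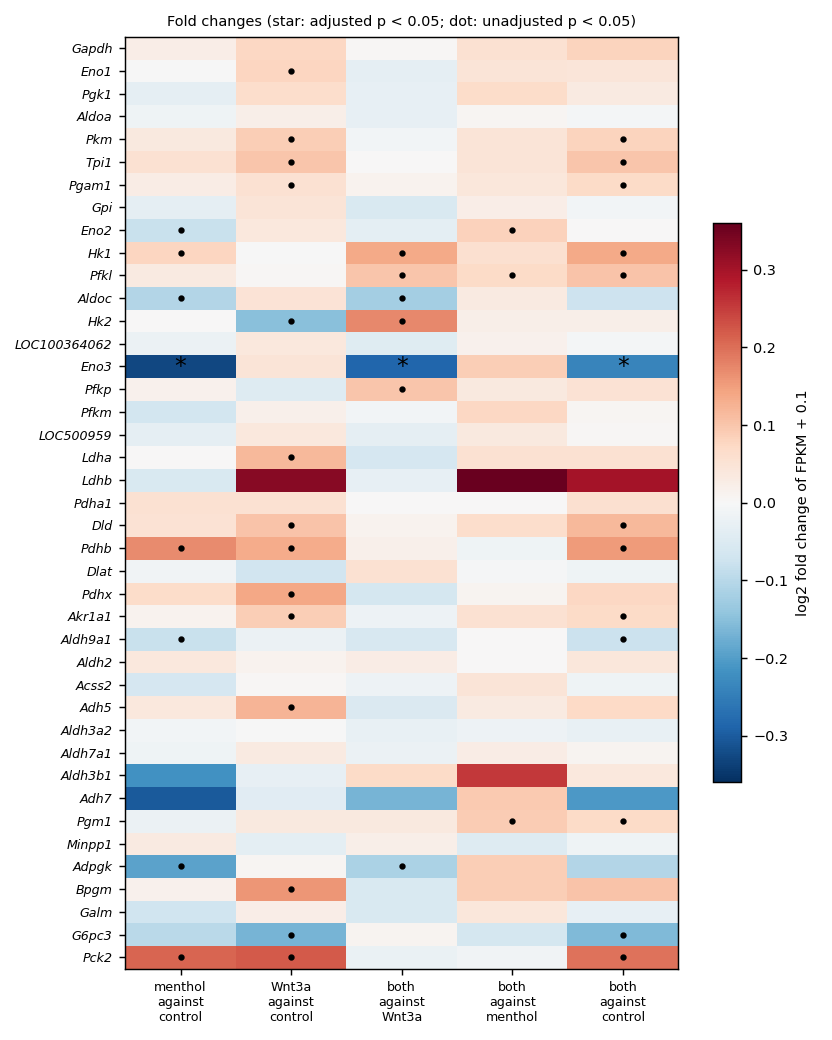
Log2 fold change of FPKM + 0.1 (colour) of the 41 tested members in 5 pairwise comparisons, with a star at an adjusted p under 0.05 and a dot at an unadjusted p under 0.05 in limma; "both" is menthol with Wnt3a. Stars appear only for Eno3, in the 3 comparisons in which menthol was given to the first group and not to the second.

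By role, the tested members of the core steps had a median log2 fold change of 0.04 with Wnt3a against control (15 of 18 higher) and of -0.0083 with menthol (8 of 18 higher). The 5 subunits of the pyruvate dehydrogenase complex had a median of 0.10 with Wnt3a and 0.06 with menthol, with 4 of 5 higher in each. The 9 enzymes of alcohols and aldehydes had medians of 0.0045 with Wnt3a and -0.02 with menthol. No member of these groups other than Eno3 passed the adjusted p. Within groups, the coefficient of variation of a tested member had a median of 3.23%, and the highest library exceeded the lowest by a median of 14.9%.

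Genes that feed or control the pathway from outside its label were also counted. Of 31 genes of uptake and control, 27 were tested, of which Bsg, the partner of the lactate carriers, was the highest at 651 FPKM, followed by the glucose carrier Slc2a1 at 242 FPKM and the channel Vdac1 at 209 FPKM. In this list 1 gene passed the adjusted p in 1 pairwise comparison: the lactate exporter Slc16a3 rose from 77.5, 75.2 and 74.6 FPKM with control to 82.8, 83.7 and 88.9 FPKM with menthol and Wnt3a (log2 fold change 0.17, SE 0.036, limma adjusted p = 0.0457). This was 1 of 27 genes, against 0.83% of all tested genes in that comparison. The list's median log2 fold change was 0.02 with Wnt3a and -0.0016 with menthol.

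Of 22 genes of hypoxia-inducible factor and its targets, 21 were tested. Hif1a (158 FPKM), Bnip3 (148 FPKM) and Ero1a (113 FPKM) were the highest. With Wnt3a against control, 18 of 21 were higher, against 51.6% of all tested genes, and 2 passed the adjusted p, against 0.437%. Bnip3, which acts in mitophagy, rose from 136, 135 and 135 FPKM to 159, 152 and 154 FPKM (log2 fold change 0.20, SE 0.027, limma adjusted p = 0.00875). Ndrg1, a stress-induced gene, rose from 94.2, 98.4 and 98.6 FPKM to 110, 108 and 107 FPKM (log2 fold change 0.16, SE 0.031, limma adjusted p = 0.0458). Bnip3 was also higher with menthol and Wnt3a than with control (log2 fold change 0.19, limma adjusted p = 0.0040). The list's median log2 fold change was 0.06 with Wnt3a and -0.0043 with menthol. Of the 3 neuron markers tested, Isl1 rose from a mean of 11.2 to 15.8 FPKM with Wnt3a (log2 fold change 0.50, limma adjusted p = 0.0121). Uchl1 had a log2 fold change of 0.03 (limma adjusted p = 0.806), and Map2 had -0.14 without overlap of the libraries (limma adjusted p = 0.294).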

How the data were processed

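RNA of 12 ND7/23 libraries was sequenced as 150 bp paired-end reads. The authors deposited FPKM values for 21556 genes, unpooled, with gene annotation and pathway labels beside them. The submitters' processing notes name fastp, HISAT, HTSeq, DESeq2, R 3.2.0 and the build mRatBN7.2, and the authors' own comparisons used DESeq2. The versions of the other tools and the strand setting are not given in the sources used here. FPKM is relative to the mapped total, so a rise of abundant genes lowers the others.

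Each gene's FPKM values were whole multiples of 1 read, and whole reads were recovered for 100.0% of the genes (relative distance from a whole count under 1e-06). A further check was not possible for 1804 genes that were 0 in all but 1 library. Counts cover counting error only.

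Groups and replicate numbers came from the labels. Genes with a mean of at least 0.5 FPKM (11451) were tested in R 4.3.3 by limma 3.58.1. The fit used log2(FPKM + 0.1) of all 4 groups together, a trended variance and Benjamini-Hochberg adjustment over all tested genes. Fold changes are on this scale, which understates changes of low genes. A gene passed at an adjusted p under 0.05. Replicates of 1 group differed by more than sampling noise, with a chi-square per degree of freedom of 3.48 to 7.27. The fits and the recovery of reads were tested on simulated data. All 65 members matched RefSeq by gene ID, which gave symbols, copies, neighbours and starts (GRCr8), and 55 had a start window.

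Named were all isozymes above the minimum, every other tested member by its level, the enolases in every comparison, each member past the adjusted p, the 6 members with the smallest p of the F test, and of the lists the genes past the adjusted p and the 3 most abundant. Hk2, Pkm, Ldha and Pfkl were given in more detail after their values were seen. The members and lists were chosen with earlier results of these data known. The alternatives were pseudocounts of 0.01 and 1, a minimum of 1 FPKM or none, median centring, a 2-fold threshold, fits of the 2 groups compared, a replicate block, leaving out each library, no variance trend, and limma voom on the recovered reads with trimmed-mean scaling. Protein sequences and a genome were not used here, and some members are not reported here.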

Additional observations from a re-analysis of the deposited data

How the results depend on the processing

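Eno3 kept its direction with menthol in all alternatives, and the counts of members past the adjusted p moved between 0 and 4. For menthol against control the count of 1 became 0 with no FPKM minimum, with no variance trend and with a 2-fold threshold. For menthol with Wnt3a against Wnt3a it was 0 with no FPKM minimum, with only the 2 groups compared, with no variance trend and with a 2-fold threshold. For menthol with Wnt3a against control it became 0 with only the 2 groups compared, with no variance trend and with a 2-fold threshold. The 2-fold threshold exceeds the size of the Eno3 difference by construction, and the cause of the other losses was not tested. On the recovered reads, limma voom gave 3 members when Wnt3a was compared with control, 3 when menthol was added to Wnt3a, 2 when cells with both agents were compared with control, and 4 over the 4 groups. Over all 11451 tested genes it passed 48, 277, 158, 29 and 250 in the 5 pairwise comparisons, against 12, 50, 6, 11 and 95 in limma on FPKM. In the F test over the 4 groups it passed 515 genes, against 112 in limma on FPKM. Leaving out each library gave 0 to 1 members for menthol, with or without Wnt3a, 0 to 2 for Wnt3a or both agents compared with control, and 1 to 2 over the 4 groups. Members at an unadjusted p under 0.05 then ranged from 3 to 9 for menthol, from 7 to 14 for Wnt3a and from 7 to 14 for both agents against control, from 2 to 6 for both agents against menthol, and from 5 to 7 for both agents against Wnt3a. The shares of all tested genes in these fits without 1 library are not given, so these moves cannot be called particular to the members.

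The correlations could not decide whether the replicate numbers paired the libraries. Of 18 same-numbered pairs, 1 correlated over 0.1 (range -0.06 to 0.15), as did 1 of 36 other pairs (range -0.16 to 0.11). A library's best match in another group had its own number in 17 of 36 cases, with 3 libraries to match in each group. With the replicate block, Eno3 remained the only member past the adjusted p, with values of 0.00485, 0.0129 and 0.0111 in its 3 comparisons, and the count was 1, 0, 1, 0 and 1 in the 5 pairwise comparisons.

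Of 59 pairs of a member and a comparison followed, the direction turned in 6 of 1234 alternatives and in none of the 47 pairs at an unadjusted p under 0.05. The 47 pairs were chosen by their p in the same libraries, so their kept direction was largely set by that choice. Eno1 with menthol against control turned to 0.0020 in limma voom and ranged from -0.015 to 0.016 without 1 library. Eno2 between menthol with Wnt3a and control turned to -0.013 with centred libraries and ranged from -0.018 to 0.024 without 1 library. Counting reads in place of FPKM, which weights isozymes by length, gave shares of 86.5% for Eno1, 12.5% for Eno2 and 1.03% for Eno3. It gave 62.4% for Hk1, 37.4% for Hk2, 62.2% for Pfkl, 30.6% for Pfkp and 7.2% for Pfkm. It gave 93.7% for Aldoa, 6.27% for Aldoc, 95.4% for Pkm, 4.62% for LOC100364062, 98.6% for Tpi1, 1.38% for LOC500959, 99.9% for Ldha and 0.127% for Ldhb. Without 1 library, the mean share ranged from 88.1 to 88.2% for Eno1, from 10.4 to 10.5% for Eno2 and from 1.41 to 1.45% for Eno3. Leaving out 1 of 12 libraries can move such a mean only little.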

Other observations

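The members' share of all reads on genes was 2.10% ± 0.0202 with control, 2.11% ± 0.0333 with menthol, 2.20% ± 0.0480 with Wnt3a and 2.18% ± 0.0197 with menthol and Wnt3a (SD, n = 3). The 6 libraries given Wnt3a ranged from 2.16 to 2.25%, and the 6 libraries without it from 2.07 to 2.14%. As a share of FPKM these libraries overlapped, at 2.39 to 2.48% with Wnt3a and 2.32 to 2.42% without it. Neither share was tested.

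Copies of 2 abundant members were followed beside their parents. Ldhal1, the copy of Ldha, stood at 90.4, 93.0 and 99.4 FPKM with control and at 104, 106 and 101 FPKM with Wnt3a (log2 fold change 0.14, SE 0.041, limma adjusted p = 0.142). Pkml1, a copy of Pkm, stood at 232, 229 and 228 FPKM with control and at 236, 254 and 250 FPKM with Wnt3a (log2 fold change 0.10, SE 0.045, limma adjusted p = 0.310). The direction was that of the parent gene for each copy.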
